A study of Mus musculus with 23 samples.

Results

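The crosslink sites of CTCF on the transcripts of 10 genes were examined: 9 enzymes of glycolysis and lactate formation, Hk2, Gpi1, Aldoa, Tpi1, Gapdh, Pgk1, Eno1, Pkm and Ldha, and beside them Ak4, a mitochondrial adenylate kinase. Sites were taken on the strand of each gene and inside its annotated body. The 10 genes are a small part of the 13608 genes with at least 1 site in any list. Ak4 was selected on its site counts, high in ESCs and 0 in NPCs, and the enzymes were chosen as a pathway with their counts and ratios in these lists known. All counts and ratios below are therefore descriptions.

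Glycolysis splits glucose into pyruvate through a chain of cytosolic enzymes, and lactate dehydrogenase then reduces pyruvate to lactate. Pluripotent and other rapidly dividing cells rely on this route heavily, so the messenger RNAs of its later enzymes are among the abundant transcripts of such cells, and several of these genes have many processed pseudogenes. Adenylate kinases balance the adenine nucleotides, and Ak4 does so in the mitochondrial matrix.

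The series used iCLIP2, which links protein to RNA with UV light and reads the linked nucleotide from the stop of reverse transcription, on Flag-tagged CTCF from nuclear lysates of mouse E14 embryonic stem cells (ES-E14TG2a). All groups carried mAID-eGFP tags on both endogenous Ctcf alleles, OsTIR1(F74G) at Rosa26 and a doxycycline-inducible Flag-Halo CTCF at Tigre, and all received 1 µM 5-Ph-IAA with 1 µg/mL doxycycline for 24 hours, so that a rescue protein stood in for endogenous CTCF. The rescue protein was complete in the WT line and without part of its zinc finger 1 in the ΔZF1 line, and each line was 1 clone, so the mutation and the clone cannot be told apart. ESC WT, ESC ΔZF1, NPC ΔZF1 and the controls without UV (noXL) of ESCs and of NPCs had 4 libraries each, and NPC WT had 3. Neural progenitor cells (NPCs) came from 2 days of differentiation, crosslinked groups received 400 mJ/cm2 at 254 nm, and both noXL groups came from the WT rescue line.

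The libraries of a group had been merged before sites were called, which leaves 1 list per group, no replicate error and no test. Ranges in parentheses after a share or ratio are 95% Wilson intervals that cover counting error only, and neighbouring sites are not independent molecules. On chromosomes 1 to 19, X and Y the lists held 107227 sites (NPC noXL) to 451137 sites (ESC WT), and read depth was unknown, so ratios were scaled to the sites inside genes of each list. RNA levels were not analysed here, so more RNA and more crosslinking per RNA cannot be told apart. The cell type labels were checked with markers. All 5 stem cell markers were lower in NPC WT than in ESC WT past a scaled log2 ratio of -1, for example Esrrb with 460 and 0 sites and Zfp42 with 164 and 11. Of the 5 neural markers only Nes was measured at 20 sites or more, with 2 sites for ESCs and 28 for NPCs, and Sox1, Pax6, Hes5 and Zic1 held 0 sites in both WT lists.

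Most site positions in the 9 enzyme genes were seen once. Of 2286 distinct positions 2010 occurred in 1 list, and 11 occurred at the same nucleotide in all 4 UV lists. These recurrent positions are shown first, because they divide into those with and without a counterpart in cells that received no UV. The windows below are 29 nt of RefSeq GRCm38 sequence, the build of the files, written 5′ to 3′ on the strand of the gene with T for U, and the capital marks the site. The 4 positions in all 4 UV lists with no noXL site within 5 nt all lay in coding exons.
Aldoa, chr7:126796003-126796031, minus strand: tgcacccagaaattTtccaatgaggagat
Gapdh, chr6:125162850-125162878, minus strand: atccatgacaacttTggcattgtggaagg
Eno1, chr4:150247630-150247658, plus strand: tctgtgaccgaatcCctgcaggcgtgagt
Eno1, chr4:150247887-150247915, plus strand: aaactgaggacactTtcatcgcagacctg

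Of these 4 sites 3 lay on a uridine, and in each of these 3 the base just before the site was also a thymine in the genome. The Gapdh site had PureCLIP scores of 154 (WT) and 65.4 (ΔZF1) in ESCs and 275 and 31.99 in NPCs. The second Eno1 site had scores of 48.1, 58.4, 110 and 48.3 in the same order. The first Eno1 site had 15.2, 34.3, 11.5 and 13.3, and the Aldoa site had 18.2, 28.3, 1.02 and 1.65. Both NPC scores of the Aldoa site lay below the medians of their lists, 2.41 in WT and 3.93 in ΔZF1. The score ranks sites within a list and is not scaled to depth. For all 4 positions the following 40 nt occur elsewhere in the genome, so reads there could also have come from a copy, and the part of the copies was not tested.

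The positions listed in all 6 groups, noXL included, were of another kind. There were 4 of them, in Gapdh, Pkm and Tpi1, and they are shown because they are among the highest-scoring sites of their genes and were listed without UV as well.
Gapdh, chr6:125165593-125165621, minus strand: tgcagccctccctgGtgctctctgctcct
Pkm, chr9:59656560-59656588, plus strand: cagtcggcgcagccCcgcacagcagcgac
Tpi1, chr6:124814142-124814170, minus strand: agagagccgtgcgtTtgtactgaccttca
Tpi1, chr6:124814146-124814174, minus strand: gtggagagagccgtGcgtttgtactgacc

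All 4 lay within 2 nt of an annotated transcript start, and 1 of the 4 lay on a uridine. The Gapdh site scored 433 in ESC WT and 288 in ESC noXL, and the Pkm site scored 120 in both lists. The same held more widely: of the 11 positions in all 4 UV lists, 7 lay within 50 nt of a transcript start and these 7 all had a noXL site within 5 nt. For Hk2, Gpi1, Pgk1 and Ldha, which have no position in either set, the site with the highest score in ESC WT is given in its place.
Hk2, chr6:82774425-82774453, minus strand: ttgttgcaccaactCcagtgctggagtct
Gpi1, chr7:34230275-34230303, minus strand: gcactggtaccgacTtgccgcgcgccgcc
Pgk1, chrX:106187149-106187177, plus strand: cctccggaggcccgGcattctgcacgctt
Ldha, chr7:46845827-46845855, plus strand: ccgcgtgctgctctGcgtgctggagccac

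These 4 sites were in 5′ UTRs, lay 0 to 15 nt from a transcript start, and each had a noXL site within 5 nt. Sites within 50 nt of an annotated start made up 8.91% (7.20 to 10.96) of the enzymes' sites in ESC WT but held 34.7% of their summed score. In ESC noXL they made up 8.96% (6.09 to 13.0) of sites and 34.6% of the score. Over all genic sites the shares in ESC WT were 8.61% of sites and 24.8% of the score, and in ESC noXL 7.64% and 21.2%. In NPC WT the enzymes had 29.2% of the score there, against 24.7% for all genic sites. The enzymes differed: in ESC WT the score share was 62.3% in Gapdh and 61.8% in Tpi1. It was below that of all genic sites in Eno1 (8.76%), Hk2 (11.2%), Pkm (15.6%) and Gpi1 (22.2%), and above it in the rest. In Ak4 the highest-scoring ESC WT site was intronic, with a score of 28.3, and the same nucleotide was listed in ESC noXL with a score of 15.1. The highest ESC noXL score in Ak4 was 30.2. Its highest ESC ΔZF1 site, in a coding exon, scored 10.99, and the 40 nt that followed it also occurred elsewhere in the genome.
Ak4 in ESC WT, chr4:101446785-101446813, plus strand: gctcgattcgaaaaTtacactcagattcc
Ak4 in ESC ΔZF1, chr4:101462990-101463018, plus strand: agatgataaacctgAagcagttgctgcca

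The members are given in the order of the pathway. Hexokinase 2 (Hk2; chromosome 6, 82725025 to 82774454, minus strand), which phosphorylates glucose on entry into the pathway, held 117 sites in the WT list of ESCs, 95 in the ΔZF1 list and 43 in the noXL list, and 67, 62 and 36 in the corresponding NPC lists. Glucose-6-phosphate isomerase (Gpi1; chromosome 7, 34201330 to 34230336, minus strand) held 171, 103 and 55 sites in ESCs and 63, 46 and 27 in NPCs. Both genes of the first steps were thus lowest in the noXL list of each cell type, with Hk2 the nearest to equal between ΔZF1 and WT.

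Aldolase A (Aldoa; chromosome 7, 126795234 to 126800751, minus strand), which cleaves fructose bisphosphate, held 63, 28 and 19 sites in ESC WT, ΔZF1 and noXL and 31, 12 and 6 in NPCs. Another annotated gene with the symbol Aldoa held 0 sites in every list. Triosephosphate isomerase (Tpi1; chromosome 6, 124810586 to 124814296, minus strand), which interconverts the triose phosphates, had the fewest sites of the enzymes in both WT lists, 34, 21 and 12 in ESCs and 24, 13 and 7 in NPCs. Glyceraldehyde-3-phosphate dehydrogenase (Gapdh; chromosome 6, 125161715 to 125166467, minus strand), the oxidative step, held 61, 20 and 13 sites in ESCs and 40, 10 and 12 in NPCs. Gapdh was the only enzyme with fewer sites in a ΔZF1 list than in the noXL list of the same cell type, before any scaling.

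Phosphoglycerate kinase 1 (Pgk1; chromosome X, 106187100 to 106203699, plus strand), the first ATP-yielding step, held 49, 37 and 14 sites in ESCs and 39, 30 and 11 in NPCs. Enolase 1 (Eno1; chromosome 4, 150236721 to 150248879, plus strand) held 107, 62 and 27 sites in ESCs and 73, 53 and 14 in NPCs. In both genes the ΔZF1 counts lay between the WT and noXL counts. Pyruvate kinase (Pkm; chromosome 9, 59656368 to 59679375, plus strand), which makes pyruvate, had the most sites of the enzymes, 246, 152 and 69 in ESCs and 138, 77 and 46 in NPCs. Of the WT sites, 50 in ESCs and 39 in NPCs also lay in another annotated gene on the same strand. Lactate dehydrogenase A (Ldha; chromosome 7, 46841475 to 46855627, plus strand) held 39, 17 and 16 sites in ESCs and 27, 13 and 11 in NPCs.

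Ak4 (chromosome 4, 101419277 to 101466995, plus strand) held 315 sites in the WT list of ESCs, 46 in ΔZF1 and 104 in noXL, and 0 in each of the NPC lists. By number of sites in ESC WT, Ak4 stood 117th and Pkm 211th among 8317 genes with at least 5 sites, and Tpi1 stood 3687th. No enzyme shared the absence of Ak4 from NPC lists.

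**Figure D1:**
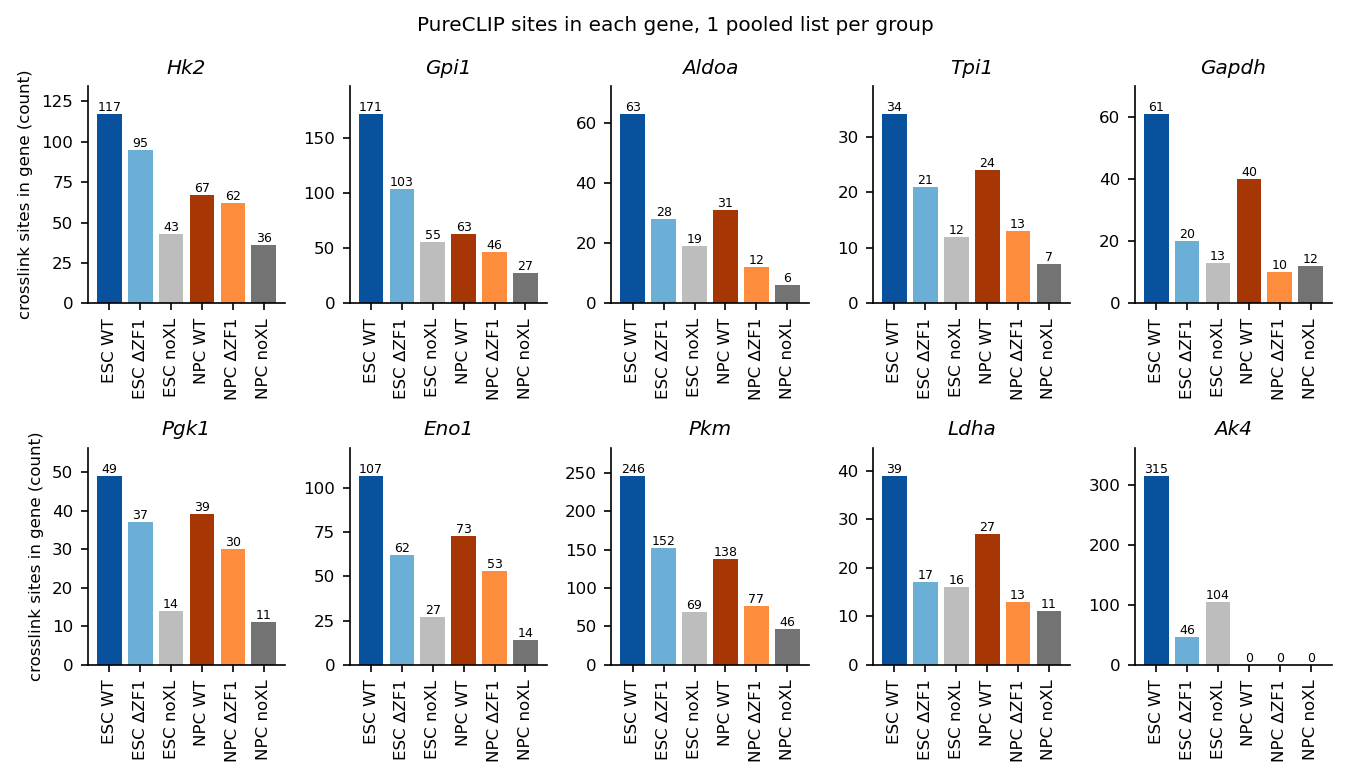
Number of crosslink sites (vertical axis, from 0, scaled separately for each gene) in each of the 10 genes for the 6 pooled lists, 1 bar per list with its count above. Each enzyme had its highest count in ESC WT, and Ak4 had sites in the ESC lists (315, 46 and 104) and 0 in the NPC lists.

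The first comparison was between NPC WT and ESC WT. Summed over the 9 enzymes, the ESC list held 887 sites and the NPC list 502, or 2.07 (1.94 to 2.21) and 2.18 (2.00 to 2.38) per 1000 genic sites. The scaled log2 ratio of the sum was 0.08 (-0.08 to 0.24), and the median of the 9 ratios was 0.30, against 0.04 for all 6730 genes that had 20 or more sites when both lists were added. None of the 9 enzymes passed a log2 ratio of 1 or -1, where 11.5% of all genes were past the upper limit and 10.4% past the lower one. With these shares a list of 9 genes holds few such genes in any case, so the count alone says little about the enzymes.

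Gpi1 was the only enzyme whose interval lay off 0, at -0.53 (-0.96 to -0.13). Pgk1 was at the other end, at 0.58 (-0.03 to 1.17), followed by Tpi1 at 0.41 (-0.35 to 1.14). The remaining 6 enzymes lay between -0.10 (Aldoa) and 0.38 (Ldha). Neighbours in this order had overlapping intervals throughout.

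Between the ΔZF1 lists the enzymes' sum was lower in NPCs, at -0.25 (-0.45 to -0.05), with Gpi1 at -0.64 (-1.15 to -0.16) and Pkm at -0.46 (-0.87 to -0.08), where the median over genes was -0.08. In the controls without UV the sum held 268 sites in ESC noXL and 170 in NPC noXL, with a scaled log2 ratio of -0.09 (-0.37 to 0.18), and none of the 8 enzymes with enough sites passed a limit, where 11.1% of all genes were higher and 12.3% lower. The sum counts sites on any base, and noXL sites are a background of the same procedure.

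Scaled to genic sites, Ak4 was 56.3-fold lower in NPC WT than in ESC WT, with 3 sites per list put in place of 0. On the same scale it was 23.4-fold lower without UV and 10.8-fold lower in ΔZF1. The intervals of the scaled log2 ratios reached up to -5.46, -4.19 and -3.07 in that order, which are smaller changes than these folds. The absence thus held in the controls as well as in the crosslinked lists. The genes with the most similar pattern over the 6 lists, by Euclidean distance of scaled and centred log2 counts among 6046 genes, were Jam2 (distance 1.02), Inpp5d (1.44), Fbxo15 (1.48), St8sia1 (1.56) and Tet2 (1.57). Each of these 5 genes had 0 sites in all NPC lists, which follows from picking them by distance to Ak4, itself at 0 there. Jam2, the nearest, held 218, 78 and 76 sites in the ESC lists. The summed enzymes were nearest to Brd2 (0.14), Poglut1 (0.15), Smc6 (0.16), Tead2 (0.18) and Eif4b (0.19).

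The other genes of the pathway were set beside the 9 enzymes for the WT lists. Of 17 further glycolysis genes, 9 had 0 sites in all lists, and 6 could be compared, of which 1 was higher and 2 were lower in NPC WT past the limits, beside 11.5% and 10.4% of all genes. Phosphofructokinase, the main control point of glycolysis, differed by isoform: Pfkp had 173 and 13 sites, a scaled log2 ratio of -2.74, while Pfkl had 7 and 26, a ratio of 2.65. Between the noXL lists Pfkp had a ratio of -2.98, and between the ΔZF1 lists Pfkl had one of 0.41. Hk1, the other hexokinase compared here, had 20 sites and 0, next to 117 and 67 for Hk2. Pgam1 had 32 and 14 sites (ratio -0.24), Bpgm had 11 and 9 (0.64) and Ldhb had 70 and 24 (-0.61), all within the limits.

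Of 16 genes of glucose entry, lactate export and pyruvate handling, 11 could be compared and 2 were past the upper limit, both of them membrane carriers, where 11.5% of all genes were. The glucose transporter Slc2a1 had 68 and 119 sites, a ratio of 1.70, and the lactate exporter Slc16a3 had 35 and 55, a ratio of 1.54. Between the noXL lists the ratios were 2.32 for Slc2a1 and 0.56 for Slc16a3, and between the ΔZF1 lists 1.68 and 0.09. The glucose transporter Slc2a3 had 157 and 98 sites (0.22) and the monocarboxylate carrier Slc16a1 had 54 and 33 (0.20). The pyruvate dehydrogenase genes Pdha1, Pdhb, Dlat and Dld lay between -0.49 and 0.15, the kinases Pdk1 and Pdk3 at 0.21 and -0.86, and Pfkfb1 at 0.24. Ak6, of the same family as Ak4, had 21 and 8 sites (-0.39), within the limits.

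The second comparison was between ΔZF1 and WT. In ESCs the enzymes' sum held 535 sites in ΔZF1 and 887 in WT, a scaled log2 ratio of 0.25 (0.09 to 0.40). In NPCs it held 316 and 502, a ratio of -0.08 (-0.28 to 0.12). The medians of all genes were 0.04 and -0.04. Whether the values differ between the cell types could not be tested with 1 list each.

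None of the 9 enzymes was past a limit in ESCs, where 6.84% of 6518 genes were higher in ΔZF1 and 5.45% lower. In NPCs 1 was, Gapdh, at -1.31 (-2.39 to -0.43), where 5.76% of 5274 genes were higher and 7.36% lower. Gapdh was also the lowest enzyme in ESCs, at -0.58 (-1.35 to 0.09). Hk2 had the highest ratio with all sites counted, at 0.68 (0.29 to 1.07) in ESCs and 0.48 (-0.02 to 0.97) in NPCs, and Pgk1 had ratios of 0.58 (-0.04 to 1.18) and 0.22 (-0.47 to 0.89). Without the exon sites of the members that have a copy elsewhere, Gapdh in NPCs had 8 and 23 sites and a ratio of -0.83 (-2.07 to 0.19). Pgk1 was then highest in both cell types, at 0.93 (0.20 to 1.66) and 0.88 (0.08 to 1.71), with Hk2 at 0.70 and 0.52. The genic totals used for scaling still held such sites of all genes, so these values are not on the same footing as those of all genes. This setting also removed exon sites only. Of the Pgk1 sites left, 20 of 30 (WT) and 25 of 29 (ΔZF1) in ESCs were intronic, and 11 of 21 and 24 of 26 in NPCs. With all exon sites kept and scaled to exon sites, the Pgk1 exon ratios were -0.26 (-1.28 to 0.63) and -1.19 (-2.60 to -0.13).

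Ak4 had a scaled log2 ratio of -1.77 (-2.24 to -1.35) between ESC ΔZF1 and ESC WT. Its count in ΔZF1 was also lower than without UV in the WT line, with a ratio of -1.69 (-2.21 to -1.21) to ESC noXL, whereas ESC WT and ESC noXL differed by 0.08 (-0.23 to 0.41). The 2 lines are separate clones and no noXL list of the ΔZF1 line was analysed here, so line and mutation cannot be told apart for this value. None of the 5 stem cell markers was past a limit between ESC ΔZF1 and ESC WT, where 6.84% of all genes were higher and 5.45% lower. Their ratios were -0.84 for Klf4, -0.80 for Zfp42, -0.13 for Nanog, 0.01 for Tfcp2l1 and 0.17 for Esrrb. The part of such differences between the lines in the value for Ak4 was not tested.

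**Figure D2:**
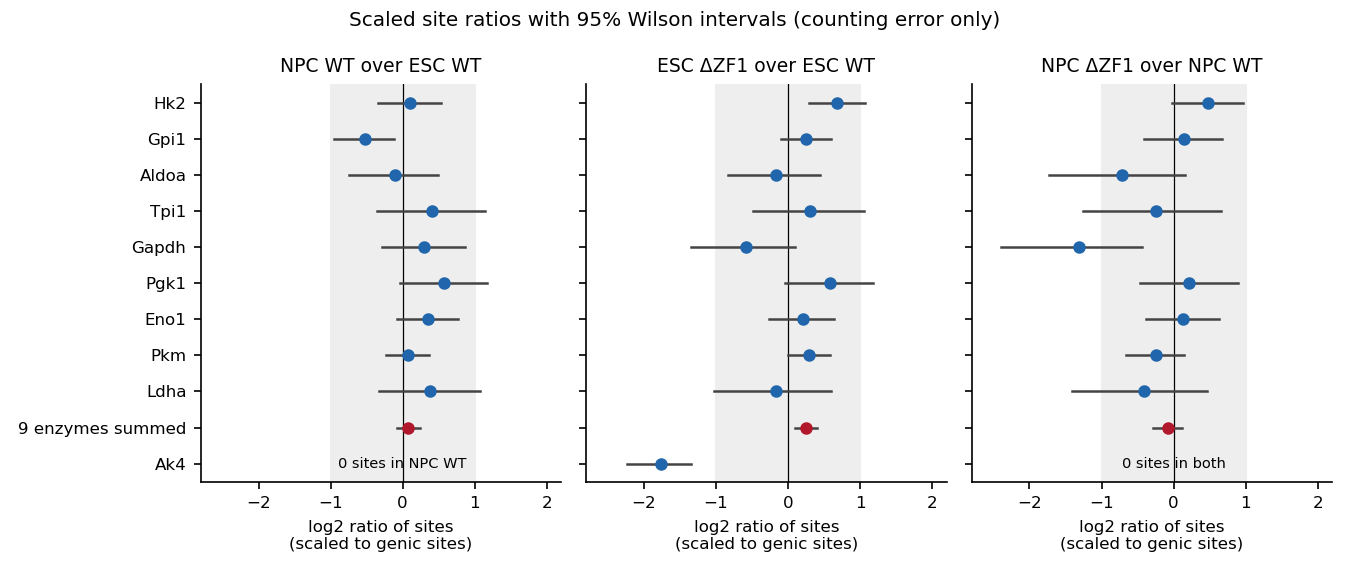
Scaled log2 ratio of sites (horizontal axis) for each gene in 3 comparisons, with points for values, lines for 95% Wilson intervals and grey for the range between -1 and 1. The enzymes lie within the grey range except Gapdh in NPC ΔZF1 over NPC WT (-1.31), and Ak4 lies at -1.77 in ESC ΔZF1 over ESC WT.

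ΔZF1 and WT also differed in where the sites lay inside the genes. In ESC WT 62.1% (58.9 to 65.3) of the enzymes' sites lay in exons, against 48.2% (44.0 to 52.5) in ESC ΔZF1. In NPC WT the share was 68.1% (63.9 to 72.1), against 40.8% (35.5 to 46.3) in NPC ΔZF1. Without UV it was 52.2% (46.3 to 58.1) in ESCs and 51.2% (43.7 to 58.6) in NPCs. For all genic sites the shares were 66.6% and 68.1% in ESC WT and ΔZF1 and 73.1% and 60.4% in NPC WT and ΔZF1. The median exon share per gene in ESCs was 87.1% over 5420 genes in WT and 80% over 3484 genes in ΔZF1, which are different sets of genes.

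The exon share was lower in ΔZF1 than in WT for 8 of the 9 enzymes in both cell types, the exception being Gapdh, whose sites all lay in exons. Exons of its transcripts together cover 4133 of its positions and leave 620 as intron. Over all genes that reached 10 sites in each list the share was lower for 44.0% in ESCs and for 69.6% in NPCs. In Eno1 the ESC values were nearly equal, at 70.1% and 69.4%. In Pgk1 29 of 49 ESC WT sites were exonic against 12 of 37 in ΔZF1, and in NPCs 28 of 39 against 6 of 30.

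Scaled to exon sites alone, the enzymes' sum had a ΔZF1 to WT log2 ratio of -0.15 (-0.36 to 0.06) in ESCs and -0.54 (-0.84 to -0.25) in NPCs. Scaled to intron sites alone, the ratios were 0.77 (0.54 to 1.00) and 0.26 (-0.05 to 0.56). In ESCs the interval lay off 0 for the intron sites and included 0 for the exon sites. Hk2 carried the intron difference most clearly: its intron sites numbered 37 in WT and 53 in ΔZF1 for ESCs, and 11 and 32 for NPCs, although both ΔZF1 lists were shorter, with scaled log2 ratios of 1.55 (0.96 to 2.17) and 1.49 (0.60 to 2.54). Pgk1 had 20 and 25 intron sites in ESCs and 11 and 24 in NPCs, with ratios of 1.35 (0.53 to 2.204) and 1.09 (0.15 to 2.17). Against noXL, the ΔZF1 intron ratios of Hk2 were 1.17 (0.48 to 1.94) in ESCs and -0.02 (-0.77 to 0.76) in NPCs, where noXL held 23 intron sites, more than the 11 of WT. Those of Pgk1 were 1.70 (0.62 to 3.11) and 1.84 (0.64 to 3.57). So the NPC value of Hk2, unlike the others, was not above the control without UV. Pkm ran the other way in NPCs, with 91 and 64 intron sites and a ratio of -0.47 (-0.94 to -0.02), next to 0.53 (0.18 to 0.88) in ESCs.

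Within exons, the ΔZF1 counts were lowest relative to WT in 3′ UTRs and coding sequence and less so in 5′ UTRs. The enzymes' 3′ UTR sites numbered 72 in ESC WT and 14 in ESC ΔZF1, and 49 and 17 in NPCs. Coding exon sites numbered 300 and 138 in ESCs and 199 and 66 in NPCs, whereas 5′ UTR sites numbered 72 and 51 in ESCs and 41 and 21 in NPCs. The noXL lists held 8 and 8 sites in 3′ UTRs, 71 and 40 in coding exons and 22 and 18 in 5′ UTRs. The exon sites outside these classes lay in exons found only in transcripts without a coding sequence. No values of all genes are given for these classes. Per length, coding exons held 22.7 sites per kb in ESC WT and introns 2.80, and the values in ESC ΔZF1 were 10.5 and 2.30.

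Ak4 ran the other way. In ESC WT 242 of its 315 sites were intronic and in ESC noXL 88 of 104, while in ESC ΔZF1 14 of 46 were, so its exon share was 23.2% (18.9 to 28.1) in WT and 69.6% (55.2 to 80.9) in ΔZF1. Its intron sites had a scaled log2 ratio of -2.97 (-3.83 to -2.30) and its exon sites one of -0.22 (-0.84 to 0.35). The low ΔZF1 count of Ak4 was thus a low intron count.

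**Figure D3:**
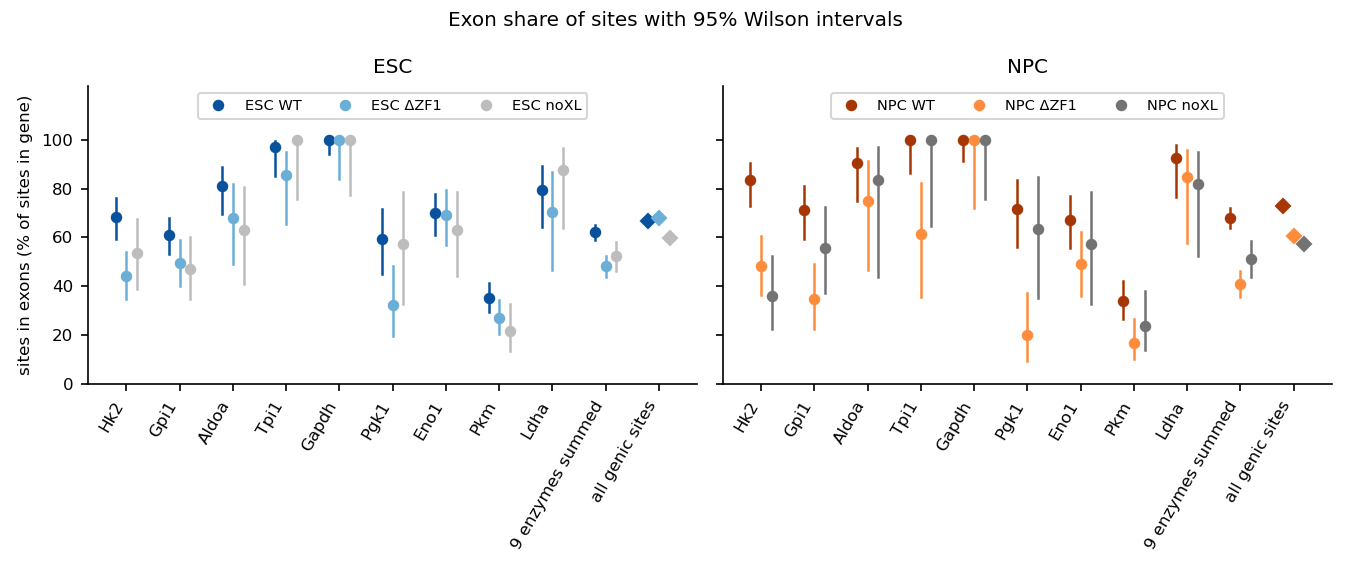
Share of each gene's sites that lie in exons (vertical axis, percent) in WT, ΔZF1 and noXL lists of ESCs (left) and NPCs (right), with 95% Wilson intervals and diamonds for all genic sites. The 9 enzymes together are at 62.1% in WT and 48.2% in ΔZF1 for ESCs, and at 68.1% and 40.8% for NPCs, and Gapdh is at 100% in every list.

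**Figure D4:**
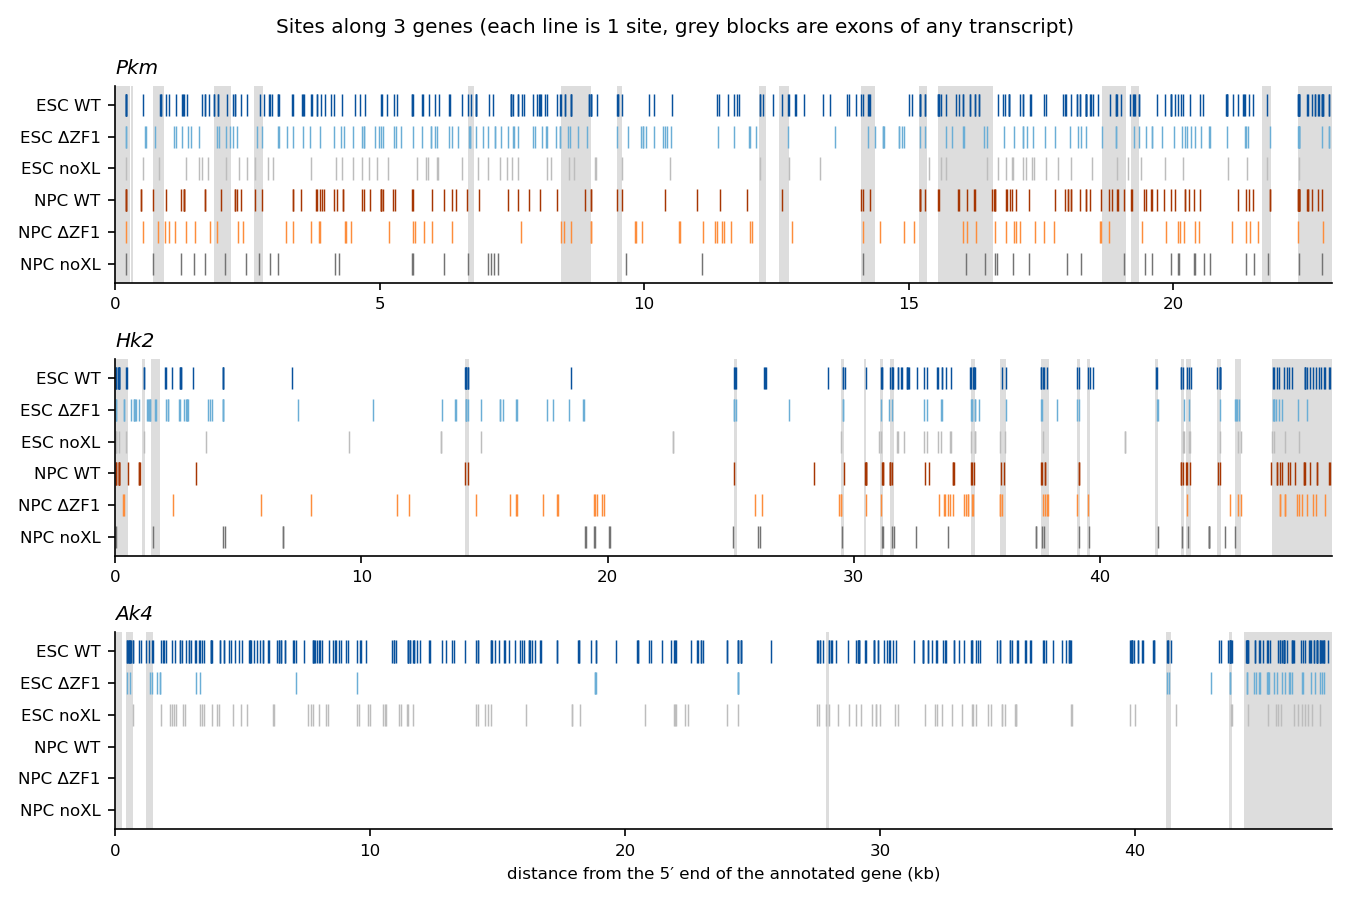
Sites along Pkm, Hk2 and Ak4 by distance from the 5′ end of the annotated gene (horizontal axis, kb), 1 line per site and 1 row per list, with exons of any transcript in grey. Hk2 shows 37 intron sites in ESC WT against 53 in ESC ΔZF1, and Ak4 shows 242 against 14.

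Repeated sequence bears on the exon counts. The share of exon positions whose following 40 nt occur elsewhere in the genome was 74.7% in Pgk1, 30.7% in Gapdh, 28.4% in Eno1, 25.6% in Pkm, 25.3% in Ldha, 17.9% in Tpi1, 14.6% in Gpi1, 14.5% in Aldoa and 1.24% in Hk2. Of the enzymes' exon sites 164 of 551 (WT) and 70 of 258 (ΔZF1) in ESCs, and 125 of 342 and 34 of 129 in NPCs, lay at such positions. Without them the exon share was 53.5% (49.9 to 57.1) and 40.4% (36.1 to 45.0) for WT and ΔZF1 in ESCs, and 57.6% (52.5 to 62.4) and 33.7% (28.4 to 39.4) in NPCs. The ΔZF1 share was thus below the WT share without these positions too.

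The mutually exclusive exons of Pkm held few sites. The exon of the PKM1 form (chromosome 9, 59675029 to 59675195) held 1 site in each of the 4 UV lists, and the exon of the PKM2 form (59675568 to 59675734), of the same length of 167 nt, held 5 and 2 in the WT and ΔZF1 lists of ESCs and 2 and 0 in those of NPCs. Both held 0 in the noXL lists. These counts are too small to compare the forms between cell types.

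The third comparison was between crosslinked WT and noXL lists. UV light links proteins best at uridines, so the base under a site was examined next to the counts. Of the enzymes' sites 57.7% (54.4 to 60.9) lay on a uridine with WT CTCF in ESCs, 49.7% (45.5 to 53.9) with ΔZF1 and 26.5% (21.6 to 32.1) without UV. The NPC lists had 66.3% (62.1 to 70.3), 61.4% (55.9 to 66.6) and 29.4% (23.1 to 36.7) in that order. Uridine made up 24.0% of the enzymes' exon positions and 28.2% of their intron positions, so the noXL shares over all parts were near base content. By part, ESC noXL had 33.8% (23.9 to 45.4) in coding exons, where 21.1% of positions are uridine, and 21.9% (15.6 to 29.8) in introns. NPC noXL had 17.5% (8.75 to 31.95) and 32.5% (23.4 to 43.2).

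The uridine share was higher in WT than in noXL for 9 of 9 enzymes in ESCs, and for 7 of the 7 with at least 10 sites in both lists in NPCs. The same held for 98.5% of all such genes in ESCs and 99.0% in NPCs, so this is shared by nearly every gene. Pkm had 60.6% (54.3 to 66.5) uridine sites in ESC WT and 24.6% (16.0 to 36.0) in noXL. Tpi1 had the smallest gap in ESCs, 52.9% (36.7 to 68.5) against 41.7% (19.3 to 68.0), and the WT and noXL intervals overlapped for Tpi1, Aldoa, Gapdh, Pgk1 and Ldha. For Ak4 the WT share was 63.8% (58.4 to 68.9), the ΔZF1 share 50% (36.1 to 63.9) and the noXL share 31.7% (23.6 to 41.2).

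Around the exon sites of the enzymes the excess was narrow. In ESC WT uridine stood at 56.1% at the site, 45.0% at the nucleotide before it and 31.2% at the one before that, and at 24.1% over the 10 nt on both sides. NPC WT had 65.2% at the site and 57.9% just before it. The noXL lists had 30.7% and 26.4% at the site. In ESC ΔZF1 the enzymes' exon sites had 55.8%, near the WT value, where exon sites of all genes had 48.2% in ΔZF1 and 59.8% in WT.

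**Figure D5:**
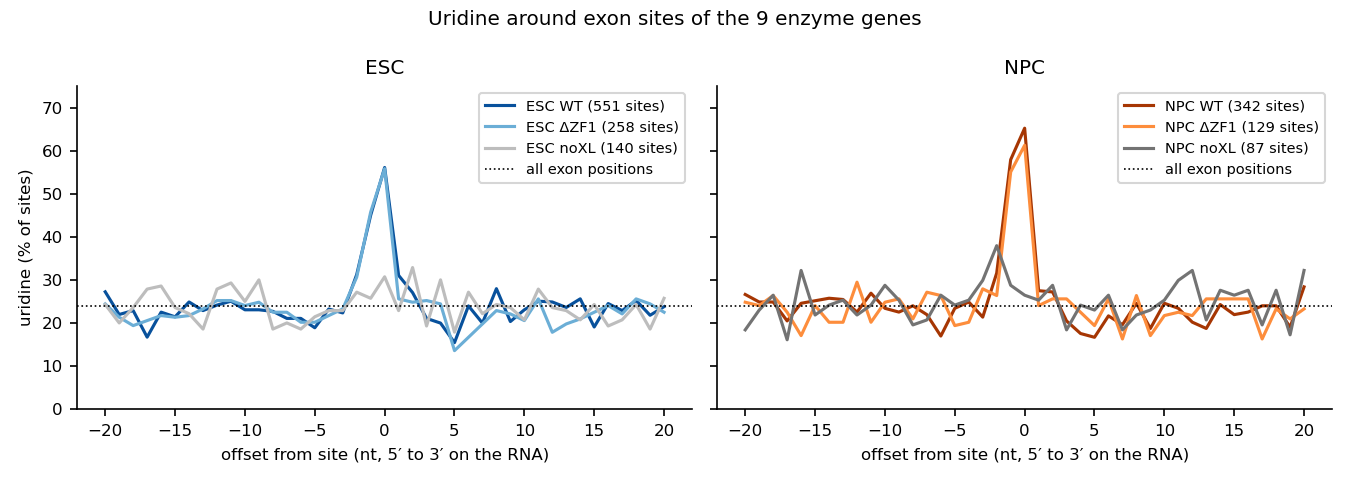
Share of exon sites of the 9 enzymes with a uridine (vertical axis, percent) at each offset from -20 to 20 nt (horizontal axis), 1 line per list, with the uridine share of all exon positions dotted. The UV lists peak at the site (56.1% for WT in ESCs and 65.2% in NPCs), and the noXL lists are at 30.7% and 26.4% there.

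By number, the enzymes' sum was 887 in WT against 268 in noXL in ESCs and 502 against 170 in NPCs, unscaled log2 ratios of 1.72 and 1.56. Scaling to genic sites removes the general difference in list length. The scaled log2 ratio of the sum was 0.21 (0.02 to 0.42) in ESCs and 0.38 (0.14 to 0.64) in NPCs. Without the members' exon sites that have a copy elsewhere, which stayed in the genic totals, it was 0.078 (-0.13 to 0.29) and 0.13 (-0.13 to 0.41), and on uridines alone 0.22 (-0.12 to 0.60) and 0.33 (-0.08 to 0.78), intervals that included 0. With sites within 8 nt merged it was 0.12 (-0.08 to 0.33) in ESCs and 0.31 (0.05 to 0.58) in NPCs. In introns alone it was 0.14 (-0.14 to 0.44) and 0.43 (0.05 to 0.82), and in exons alone 0.31 (0.05 to 0.58) and 0.44 (0.11 to 0.79). On other bases it was 0.28 (0.04 to 0.53) and 0.34 (0.01 to 0.68), and with the score minimum of 2.55 it was 0.52 (0.28 to 0.77) and 0.72 (0.40 to 1.05). In ESCs no enzyme passed a limit, where 8.12% of genes were higher in WT and 6.6% lower. In NPCs Aldoa, at 1.02 (-0.03 to 2.42), and Eno1, at 1.13 (0.39 to 2.02), passed the upper limit, where 10.5% of genes were higher and 6.51% lower. Aldoa held 6 sites in NPC noXL and Eno1 14. Without their exon sites that have a copy, and with unchanged genic totals, the ratios were 0.76 (-0.39 to 2.31) and 0.67 (-0.18 to 1.70).

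Positions recurred between lists in a larger share of the enzymes' sites than of all genic sites. Of the enzymes' NPC WT sites 45.8% (41.5 to 50.2) lay within 5 nt of a site of ESC WT, where shifts of 500 and 1000 nt left 6.57%, and the share for all genic sites was 28.2%. The ΔZF1 lists showed the same order against WT, with 33.1% (29.2 to 37.2) in ESCs against 24.2% for all genic sites, and 21.5% (17.3 to 26.4) in NPCs against 13.1%. WT sites lay near noXL sites of their cell type in 12.4% (10.4 to 14.7) in ESCs and 11.4% (8.87 to 14.4) in NPCs, against 7.67% and 5.64% for all genic sites. In ESC WT the enzymes had a median of 8.80 sites per kb of gene body against 2.25 over genes, and of 13.9 exon sites per kb of exon against 9.19 (2.67 in 5 enzymes against 3.28 in NPC ΔZF1), and the shifted share of all genic sites was 3.68% beside 6.57%. The part of this density in the shared positions was not tested.

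The height of the sites differed between the enzymes. In ESC WT 11 of 61 Gapdh sites and in NPC WT 10 of 40 were in the top 1% of scores of their list, whereas Hk2 and Gpi1 had 0 in either. Aldoa, Ldha and Gapdh sites had median percentiles of 81.1, 79.9 and 77.4 within the ESC WT list, and Hk2 sites one of 47.2. Of the 11 top Gapdh sites in ESC WT 5 lay within 50 nt of a transcript start. The highest noXL scores in the enzymes were also in Gapdh, 288 in ESCs and 198 in NPCs, at the start position shown above.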

How the data were processed

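The genes and gene lists were chosen with earlier results of these data known, and no test was run. Per the labels and the study's methods, the authors used Flexbar for demultiplexing and trimming, STAR with mm10 for alignment and UMI-tools for duplicates, then pooled each condition's libraries and called single-nucleotide sites with PureCLIP. Versions, and the treatment of reads that map to several places, are not given in the sources used here. The deposited value of a site is its PureCLIP score.

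Sites were assigned by strand to GENCODE M21 genes on GRCm38, the same build. A site was exonic if any transcript of its gene had an exon there. Scaled log2 ratios compare shares of the genic sites of each list, with a pseudocount of 1, a minimum of 20 sites over both lists and limits of 1 and -1, and 3 sites stood in for 0. Named genes were the members, other pathway genes reaching 20 sites in the WT lists, markers, and the 5 nearest genes to Ak4 and to the enzymes' sum, with 1 gene not reported here. Copies elsewhere were exact 40-nt matches on either strand. Alternatives changed the score minimum, bases, gene parts, overlaps, copies, scaling, pseudocount, gene minimum and sharing distance. Scripts were checked on simulated data. Python 3.11.15, pandas 2.3.3, numpy 2.4.6, SciPy 1.17.1, pysam 0.24.0 and matplotlib 3.10.9 were used.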

Additional observations from a re-analysis of the deposited data

How the results depend on the processing

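No paired analysis was possible because sites had been called on merged libraries, which also left no single library to omit. Of 165 alternative values 111 stayed within the main value's interval, or within 1.5 times a count. The enzymes' scaled log2 ratio of NPC WT to ESC WT was -0.093 on bases other than uridine, -0.82 without scaling and -0.40 per library. That of ESC ΔZF1 to WT was 0.075 with a score minimum of 2.55, -0.15 in exons, 0.77 in introns and -0.73 both unscaled and per library. That of NPC ΔZF1 to WT was -0.38 with the score minimum, -0.54 in exons, 0.26 in introns, 0.17 without exon sites that have a copy, -0.67 unscaled and -1.08 per library. For WT to noXL the ESC values were 0.52 with the score minimum and 1.72 both unscaled and per library, and the NPC values were 0.72, 1.56 and 1.97, with 0.13 without copies (0.078 in ESCs). The cause was not tested.

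With a minimum of 50 sites, 642 genes were past the limits for NPC to ESC WT (1479 as reported), 287 for ESC ΔZF1 to WT (801), 185 for NPC ΔZF1 to WT (692; 113 higher and 72 lower, against 304 and 388), 222 for ESC WT to noXL (914) and 173 for NPC WT to noXL (808; 87 higher and 86 lower, against 498 and 310), where fewer genes were compared. Unscaled, list length enters the ratio, and the counts were 3170 (347 higher, 2823 lower), 3170 (99 and 3071), 1600 (101 and 1499), 5161 (5142 and 19) and 3047 (3026 and 21). Unscaled, Gpi1 and Aldoa were lower in NPC WT, Aldoa, Gapdh and Ldha were lower in ΔZF1 in both cell types, and 9 enzymes in ESCs and 8 in NPCs were higher in WT than in noXL. Gapdh stayed past the limit for NPC ΔZF1 to WT under each of these gene minimums, pseudocounts and scalings, and Aldoa was within it for NPC WT to noXL with scaling by the median ratio and had too few sites for the minimum of 50. Without the members' exon sites that have a copy, chosen after seeing the data for single members and with these sites left in the genic totals, the value was -0.83 for Gapdh in NPC ΔZF1 to WT, and 0.76 for Aldoa and 0.67 for Eno1 in NPC WT to noXL.

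The uridine share in ESC ΔZF1 was 55.8% in exons and 44.0% in introns. The exon share was 68.2% (ESC WT), 52.6% (ESC ΔZF1) and 75.1% (NPC WT) with the score minimum. On uridines it was 54.1% in ESC ΔZF1 and 60.6% in ESC noXL, on other bases 42.4% in ESC ΔZF1, and 72.1% in NPC WT without sites in a second gene. Without exon sites that have a copy, a setting chosen after seeing the data, it was 53.5% and 40.4% in ESC WT and ΔZF1 and 57.6% and 33.7% in NPC WT and ΔZF1. The order of WT over ΔZF1 held in each of these settings for both cell types. At 0 and 50 nt the shared sites were 17.6% and 66.0% for ESC ΔZF1 in WT, 12.0% and 43.4% for NPC ΔZF1 in WT, 28.3% and 81.9% for NPC WT in ESC WT, 3.27% and 38.4% for ESC WT in noXL, and 3.59% and 29.9% for NPC WT in noXL. The lists are pooled and their depth is unknown, so intervals carry no variation between libraries, and small members such as Tpi1 and Ldha have wide ones.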
